A study of Mus musculus with 8 samples.

Results

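RNA of mouse embryonic stem cells of the CKO genotype was compared with wild-type (WT) RNA in the naive and the formative state. All 9781 genes with an RNA level for CKO and WT were used, of the 19135 genes named nearest to a region in the deposited table. The series itself holds 8 H3K27ac CUT&Tag libraries, 2 in each of 4 groups, from naive or formative cells that were WT or DKO. DKO cells lack MLL3 and MLL4, the H3K4 methyltransferases encoded by Kmt2c and Kmt2d. The WT chromatin libraries came from the R1 line, and formative cells were taken 63 hours after withdrawal of LIF2i, the mix of leukaemia inhibitory factor and a pair of kinase inhibitors that holds cells naive. The labels name no line for DKO, and the sources used here give neither the expansion of CKO nor its line, its clone number or the part of a gene removed in it. The RNA levels come from libraries outside this series, with 1 value per genotype and state, on a scale that behaves as log2. There is therefore no SD, n or test for any RNA difference, and the RNA depth is unknown. The culture times of the RNA samples are not given either, so N and F in the column names are read as naive and formative. A gene is counted as higher or lower where its levels differ by at least 1 on the log2 scale, which is 2-fold.

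Naive embryonic stem cells resemble the epiblast before implantation and depend on factors such as Esrrb, Klf4, Tfcp2l1 and Nanog. On release from the naive state they switch these genes down and turn on formative genes such as Fgf5, Pou3f1 and Otx2, before primed cells express mesendoderm genes such as T and Wnt3. MLL3 and MLL4 place H3K4me1, mostly at enhancers, and p300 and CBP acetylate H3K27 at active enhancers and promoters. Cells that lack both are known to survive and self-renew, with altered gene activation on differentiation.

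Kmt2c RNA was low in CKO and Kmt2d RNA was close to WT in the naive state. Kmt2c, at chr5:25271798-25498783 of mm10, was at 5.61 in naive WT, 4.55 in naive CKO and 4.46 in naive DKO. In the formative state Kmt2c was at 5.21 in WT, 4.27 in CKO and 4.30 in DKO. CKO and DKO thus lay together, 1.06 and 1.15 below WT in the naive state and 0.95 and 0.91 below WT in the formative state. Kmt2d, at chr15:98831669-98871204, was at 4.86 in naive WT, 4.85 in naive CKO and 4.13 in naive DKO. Formative Kmt2d was at 5.16 in WT, 4.67 in CKO and 4.31 in DKO. In both states the Kmt2d level of CKO was above that of DKO, by 0.71 and 0.36. How reads were counted over each gene is not given, and a deletion can leave a transcript that is still counted, so these values do not show which protein is lost.

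The other measured genes of the machinery that methylates H3K4 or acetylates H3K27 stayed within 2-fold of WT in CKO, except Hdac1. Of 15 measured members of 24 listed, 1 was higher and 1 lower in naive CKO, and 1 was higher and 0 lower in formative CKO, with list medians of -0.01 and -0.24 beside medians over all genes of 0.02 and 0.00. Ep300, which encodes p300, differed by 0.41 and -0.25, and Crebbp, which encodes CBP, by -0.19 and -0.59. Ncoa6 and Paxip1, subunits of the MLL3 and MLL4 complexes, differed by -0.54 and 0.25 in the naive state and by -0.43 and -0.24 in the formative state. Wdr5 and Ash2l, core subunits shared by all complexes of this family, differed by -0.56 and -0.26 in the naive state and by -0.09 and -0.26 in the formative state. The demethylases Kdm1a, Kdm5a, Kdm5b and Kdm5c differed from WT by between -0.57 and 0.27. Hdac1, a deacetylase, was 2.57 and 2.05 above WT in CKO and 2.52 and 1.62 above WT in DKO. Its level is uncertain, because 3 other genes or pseudogenes hold a near-identical sequence.

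Over all genes, 377 were higher (3.85% of 9781) and 469 lower (4.8%) in naive CKO than in naive WT. In the formative state 356 were higher (3.64%) and 468 lower (4.78%). The naive DKO cells differed from the same WT at more genes, 835 higher (8.54%) and 1097 lower (11.2%), and the formative DKO cells at 574 higher (5.87%) and 494 lower (5.05%). The balance of the formative DKO counts depends on the scaling, with 498 higher and 556 lower when centred and 565 and 581 after quantile normalization. Both genotypes are compared with the same WT values, so their differences from it are not independent. Set directly against DKO, which uses no WT value, naive CKO was higher at 882 genes (9.02%) and lower at 633 (6.47%), and formative CKO was higher at 403 (4.12%) and lower at 551 (5.63%). At 4-fold, 47 genes were higher and 68 lower in naive CKO against WT, and 34 and 77 in formative CKO. The interquartile range of the CKO difference was 0.547 in naive and 0.603 in formative cells, against 0.846 and 0.645 for DKO.

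**Figure D1:**
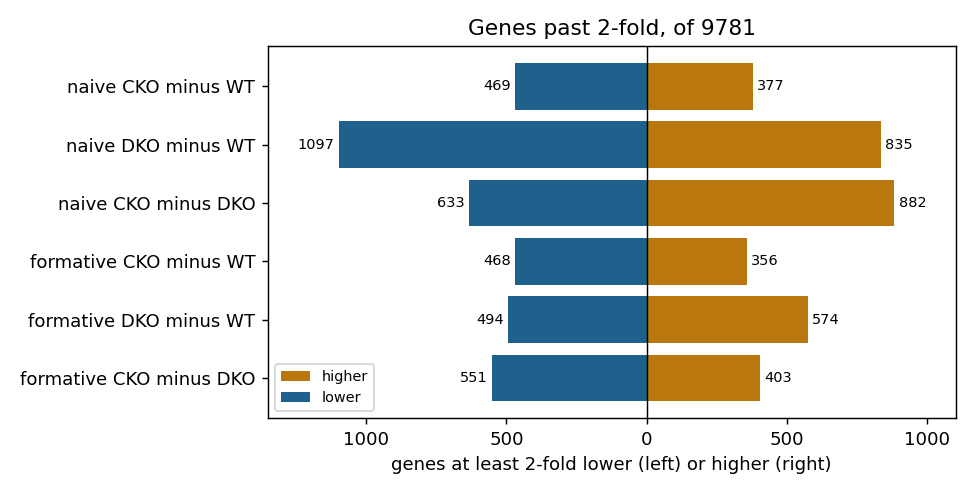
Number of genes at least 2-fold lower (blue, left) or higher (ochre, right), of 9781, for CKO and DKO against WT and for CKO against DKO, in each state. Naive CKO has 377 higher and 469 lower genes against WT where naive DKO has 835 and 1097, and the formative bars of both genotypes are closer in length.

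Most CKO differences past 2-fold lay among low levels. In the 25% of genes with the lowest mean level, 9.89% were higher and 12.3% lower in naive CKO, and 8.18% and 12.9% in formative CKO. In the top 25% these shares were 0.736% and 0.654% in the naive state and 0.941% and 1.19% in the formative state. Of the genes counted, 30 in the naive and 6 in the formative comparison were at the lowest value of the scale in CKO or WT, where the size of a fold has no meaning. Without replicates, the error of a low level cannot be given, and its part in these counts was not tested.

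The naive and formative CKO comparisons share no value, and their counted genes overlapped in part. Genes higher in both states numbered 89, which is 23.6% of the naive and 25% of the formative set. Genes lower in both numbered 134, which is 28.6% of each set. Of all genes, 3.85% were higher in naive and 3.64% in formative CKO, and 4.8% and 4.78% were lower. Opposite directions were listed for 10 genes higher in naive and lower in formative CKO and for 10 the other way. Among genes above the median level, 14 were higher and 8 lower in both states, and 0 went in opposite directions. The sets there were small, with 56 higher and 41 lower genes in naive and 65 and 49 in formative CKO. The same WT and CKO lines may lie behind both states, so an overlap does not separate genotype from line.

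**Figure D2:**
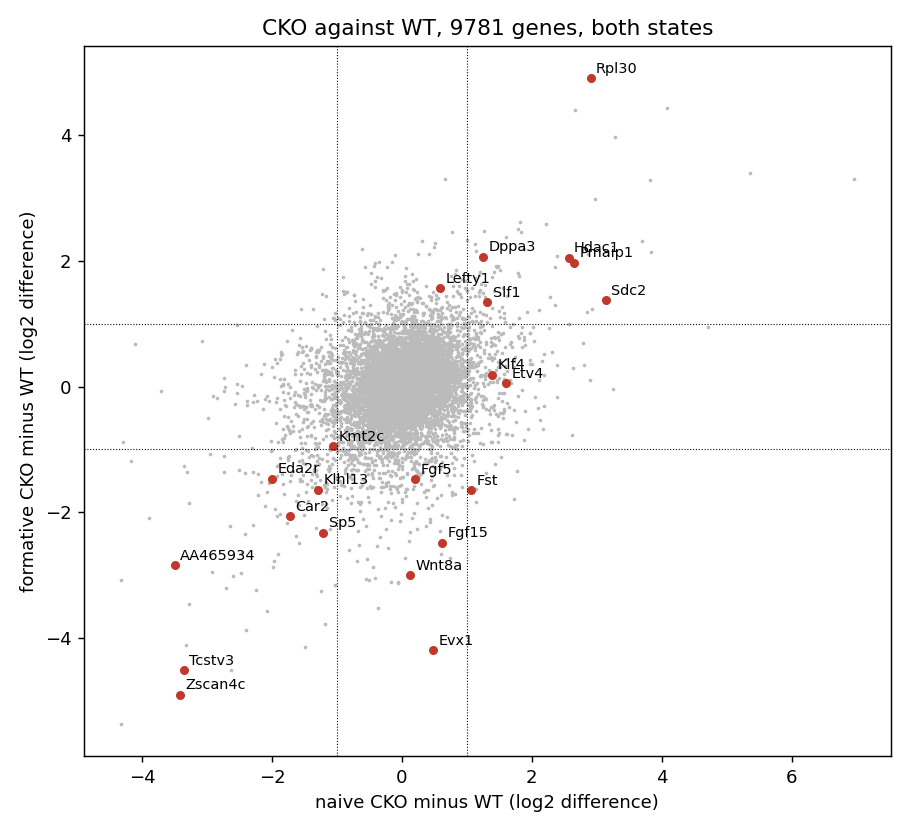
Log2 difference between CKO and WT in the naive state (horizontal) and in the formative state (vertical), 1 point per gene, with named genes in red and dotted lines at 2-fold. Car2, Klhl13 and Eda2r lie low on both axes, while Evx1, Wnt8a, Fgf15 and Fgf5 lie low only on the formative axis.

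Among genes of high level, those lower in CKO in both states included Car2, Eda2r, Klhl13, Pid1, Sgsm2 and Hunk. Car2 encodes carbonic anhydrase 2 and lies at chr3:14886273-14900770. It was at 5.26 in naive WT, 3.54 in naive CKO and 2.63 in naive DKO, and at 7.97, 5.91 and 4.11 in the formative state. CKO lay between WT and DKO in both states, 1.72 and 2.06 below WT.

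Klhl13 and Eda2r, both on the X chromosome, stood apart from DKO. Klhl13, an adaptor of a CUL3 ubiquitin ligase at chrX:23219271-23365082, was at 8.44 in naive WT, 7.15 in naive CKO and 9.63 in naive DKO. In formative cells it was at 8.25 in WT, 6.61 in CKO and 8.97 in DKO. CKO was the lowest of the genotypes in both states and DKO the highest, and CKO lay 2.48 and 2.36 below DKO. Eda2r, a receptor of the tumour necrosis factor receptor family at chrX:97333840-97377216, was at 5.66, 3.67 and 5.95 in naive WT, CKO and DKO. Its formative levels were 5.20, 3.73 and 6.56 in the same order. Hunk, which encodes a kinase of the SNF1 family, was at 5.18, 4.18 and 5.36 in naive WT, CKO and DKO and at 6.12, 4.64 and 6.06 in formative cells, so that DKO lay near WT and CKO alone was low. Pid1 was 1.58 and 1.18 below WT in CKO and 1.76 and 0.89 below it in DKO. Sgsm2 was 1.16 and 1.18 below WT in CKO.

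Genes higher in both states at high level included Sdc2, Slf1 and Mios. Sdc2 encodes the cell-surface proteoglycan syndecan 2. It was at 2.57, 5.71 and 5.97 in naive WT, CKO and DKO and at 3.54, 4.91 and 4.83 in formative cells, so that WT alone was low. Slf1, a genome maintenance factor, was 1.32 and 1.34 above WT in CKO and 1.74 and 1.04 above it in DKO. Mios, a part of the GATOR2 complex that acts in amino acid sensing, was 1.28 and 1.43 above WT in CKO and 1.70 and 0.86 in DKO.

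Several of the large positive differences were those of ribosomal protein genes whose levels are uncertain. Rpl30 was at 3.65 in naive WT, 6.56 in naive CKO and 6.57 in naive DKO, and at 2.91, 7.82 and 6.73 in the formative state. Rps3a1 was at 2.87, 6.16 and 5.85 in the naive state and at 2.88, 6.86 and 5.55 in the formative state. Rpl29 was 3.82 and 3.28 above WT in CKO and 3.83 and 2.04 above it in DKO, and Rpl17 was 1.51 and 1.85 above WT in CKO. In each of these, WT was low and CKO and DKO were high. Near-identical sequence, at least 90% identical over 60% of a transcript, was found in 16 other genes or pseudogenes for Rpl30, 7 for Rps3a1, 71 for Rpl29 and 49 for Rpl17. Reads that fit several copies can be split or dropped in counting, and how they were treated is not given in the sources used here. Of 62 ribosomal protein genes measured, 4 were higher and 2 lower in naive CKO, and 5 were higher and 2 lower in formative CKO. The shares over all genes were 3.85% higher and 4.8% lower in naive CKO, and 3.64% and 4.78% in formative CKO. Of 209 genes with a pseudogene named after them, 4.31% were higher in naive CKO and 4.78% in formative CKO. Among other genes these shares were 3.84% and 3.61%. Gapdh, a gene known to be strong in these cells, was listed at 1.11 in naive WT. The part of copies in any of these levels was not tested.

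Rpl10l and Rpl39l, variant ribosomal protein genes, were lower in CKO and far lower in naive DKO. Rpl10l was at 10.7 in naive WT, 8.71 in naive CKO and 5.91 in naive DKO, and at 7.21, 6.18 and 6.37 in formative cells. Rpl10l has 1 near-identical copy, so its reads could be split. Rpl39l was at 9.35, 8.35 and 5.11 in the naive state and at 7.64, 6.63 and 6.35 in the formative state. For both genes naive CKO lay between WT and DKO, and formative CKO lay beside DKO.

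AA465934 and Ccnb1ip1 were low in CKO and DKO in both states. AA465934, a transcript of unknown function at chr11:83291699-83294632, was at 8.41 in naive WT, 4.91 in naive CKO and 5.10 in naive DKO, and at 8.06, 5.22 and 5.59 in formative cells. Ccnb1ip1, which encodes a ubiquitin ligase with a role in meiotic crossover, was at 5.68, 2.41 and 2.76 in the naive state and at 5.11, 1.65 and 3.11 in the formative state.

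Some large differences passed 2-fold in the naive comparison and not in the formative one. St8sia1, a ganglioside sialyltransferase, was at 5.09 in naive WT, 2.92 in CKO and 0.85 in DKO, and between 0.70 and 1.00 in all formative groups. Tmem64 was at 5.84, 3.11 and 3.43 in naive cells and between 3.96 and 4.09 in formative cells. Plce1, a phospholipase C, was 1.93 below WT in naive CKO and 3.25 below it in naive DKO. Haus4, a part of the augmin complex of the spindle, was 1.98 above WT in naive CKO and 0.85 above it in formative CKO. Paip1, which binds the poly(A)-binding protein, was 1.97 and 0.35 above WT. The difference between the naive and formative effects was not tested for these genes.

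In the formative state, Gadd45b was high in CKO alone. Gadd45b, a stress-response gene at chr10:80930073-80932204, was at 4.00 in formative WT, 6.10 in CKO and 4.22 in DKO. The naive levels lay between 4.90 and 5.01. Ccn1, a matricellular target of YAP, was at 3.95, 6.10 and 6.44 in formative WT, CKO and DKO, so that CKO and DKO were both high. Ccn2, another matricellular gene of the same family, was at 5.47, 5.35 and 8.0, so that DKO alone was high. Pmaip1, which encodes the pro-apoptotic protein NOXA, was at 2.69, 5.34 and 3.02 in naive WT, CKO and DKO and at 5.98, 7.95 and 4.44 in formative cells. CKO was the highest of the genotypes in both states, and formative CKO lay 3.51 above formative DKO.

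The p53 and stress response list held 2 genes past 2-fold in each state. Of its 13 measured members of 17, 2 were higher in naive CKO (Pmaip1 and Chac1, by 2.65 and 1.01) and 2 in formative CKO (Pmaip1 and Sesn1, by 1.97 and 1.32), with 0 lower in either state. Over all genes 3.85% and 3.64% were higher. The list medians were 0.11 and 0.18.

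Rraga, Ccno and Fermt1 were lower in formative CKO than in formative WT. Rraga, a RAG GTPase of the amino acid sensing pathway, was at 8.79, 6.96 and 8.33 in formative cells and at 9.87, 9.24 and 8.82 in naive cells. Ccno was at 5.23, 3.11 and 2.38 in formative WT, CKO and DKO, and Fermt1, which encodes the integrin activator kindlin 1, was at 5.72, 4.04 and 5.26. In naive cells Fermt1 was at 0.42 in WT, 0.10 in CKO and 3.23 in DKO.

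**Figure D3:**
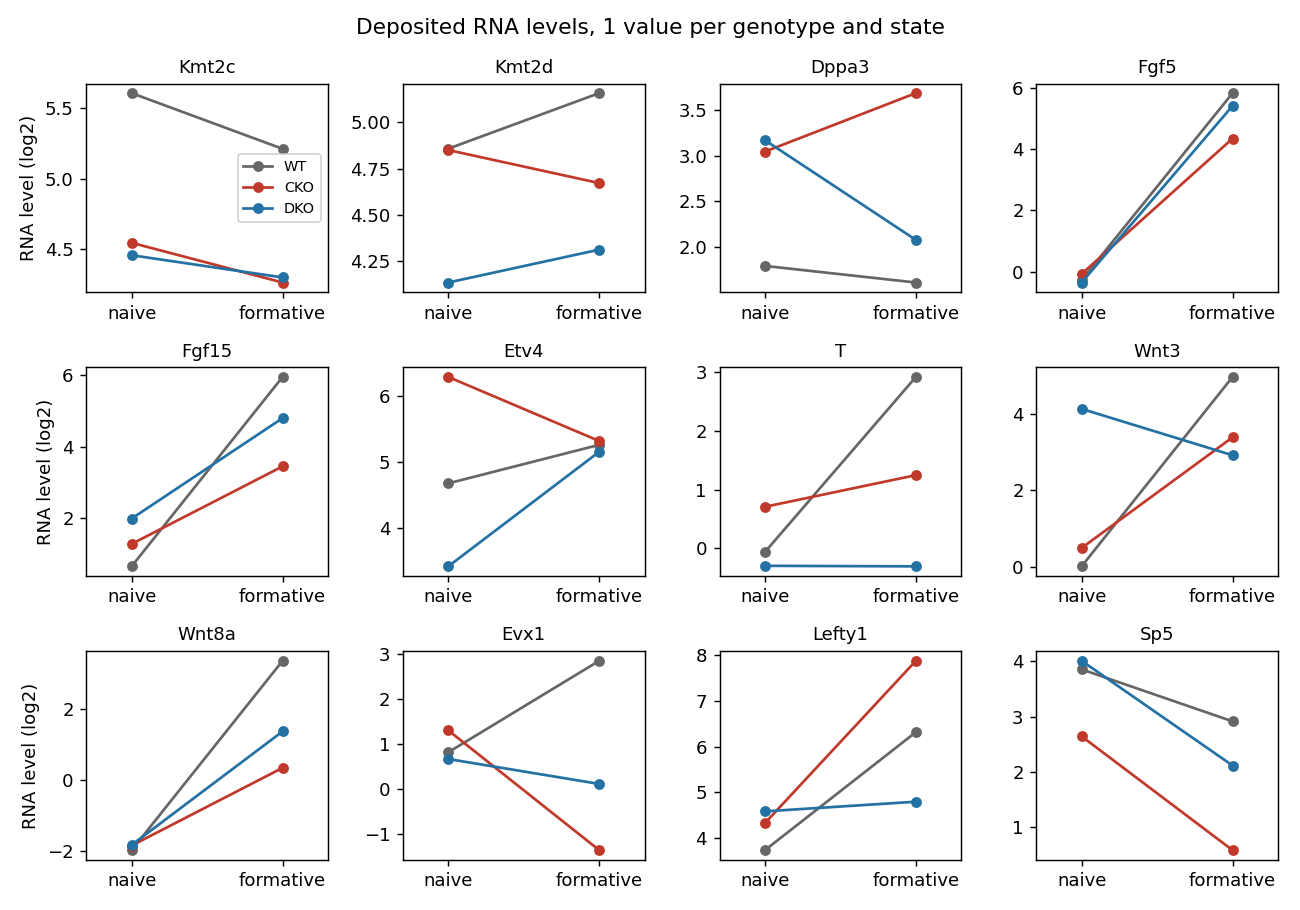
RNA level on the deposited log2 scale in naive and formative cells for 12 genes, 1 point per genotype and state (WT grey, CKO red, DKO blue), with lines joining the states of a genotype and separate vertical scales. Kmt2c shows CKO beside DKO, naive Kmt2d shows CKO beside WT, and Evx1, Wnt8a, T and Wnt3 show formative CKO below formative WT.

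Naive pluripotency genes had medians close to 0 in CKO in both states. Of 22 measured members of 25 listed, 2 were higher and 0 lower in naive CKO, with a median of -0.01, and 1 was higher and 0 lower in formative CKO, with a median of 0.15. Over all genes 3.85% were higher and 4.8% lower in naive CKO, and 3.64% and 4.78% in formative CKO. In naive DKO 4 were higher and 5 lower, with a median of -0.59, where 8.54% of all genes were higher and 11.2% lower. Esrrb was at 8.60, 8.26 and 7.71 in naive WT, CKO and DKO, and Tfcp2l1 at 9.44, 9.15 and 9.17. Nanog was at 8.71, 8.77 and 9.12. These factors of the naive network were within 2-fold of WT in naive CKO.

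Klf4 and Dppa3 were the members higher in naive CKO. Klf4, a naive transcription factor downstream of LIF, was at 7.53, 8.92 and 9.38 in naive WT, CKO and DKO and at 6.66, 6.85 and 7.22 in formative cells. Dppa3, a maternal factor that protects imprints, lies at chr6:122626410-122630272. It was at 1.80, 3.04 and 3.17 in naive cells and at 1.62, 3.68 and 2.08 in formative cells, so that formative CKO was the highest of the 6 values. Spp1 in formative cells was at 4.53, 5.43 and 6.42 in WT, CKO and DKO, with CKO 0.90 above WT and DKO 1.89 above it.

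Dnmt3l and Morc1 separated CKO from DKO. Dnmt3l, the cofactor of the DNA methyltransferases that act de novo, was at 9.04 in naive WT, 9.76 in naive CKO and 5.50 in naive DKO. Formative levels were 8.50, 7.72 and 6.49. Morc1, a germline silencing factor, was at 6.96, 6.60 and 3.12 in naive cells and between 3.07 and 3.40 in formative cells. Naive CKO was within 2-fold of WT at both genes and lay 4.25 and 3.49 above naive DKO. Myo1f, a myosin, was at 5.67, 6.43 and 1.90 in the naive state, and Lrrc34 was at 6.34, 6.04 and 2.76.

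Of the core pluripotency genes, 14 were measured of 15. In naive CKO 2 were higher, Lin28a by 1.34 and Esrp1 by 1.17, and 0 were lower. In formative CKO 0 were higher and 3 were lower, Mycn by 1.12, Dppa2 by 1.06 and Dppa4 by 1.01. Of all genes, 3.85% were higher and 4.8% lower in naive CKO, and 3.64% and 4.78% in formative CKO. Sox2 differed from WT by 0.14 in naive and by -0.46 in formative CKO. Pou5f1, whose listed level of 3.25 in naive WT is low for a gene known to be strong in these cells, differed by -0.03 and 0.06.

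Formative genes leaned upward in naive CKO and downward in formative CKO. Of 21 measured members of 25 listed, 3 were higher and 0 lower in naive CKO, with a median of 0.32, and 0 were higher and 6 lower in formative CKO, with a median of -0.39. The medians over all genes were 0.02 and 0.00, and 3.85% of all genes were higher in naive and 4.78% lower in formative CKO. In DKO 3 were higher and 6 lower in the naive state, with a median of -0.20, and 1 was higher and 2 lower in the formative state, with a median of -0.24. The DKO shares over all genes were 8.54% higher and 11.2% lower in the naive and 5.87% and 5.05% in the formative state.

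The 6 formative genes lower in formative CKO were Fgf15, Fgf5, Sall2, Foxd3, Grhl2 and Pim2. Fgf15, an FGF family ligand at chr7:144896531-144900953, was at 5.94 in formative WT, 3.45 in CKO and 4.79 in DKO, after 0.67, 1.29 and 2.00 in naive cells, and it has 1 near-identical copy. Fgf5, the ligand that marks formative cells, lies at chr5:98254184-98277030 and was at 5.82, 4.34 and 5.41 in formative cells and between -0.35 and -0.07 in naive cells. Sall2 was at 6.41, 5.09 and 5.50 in formative cells. Foxd3, a transcription factor needed for exit from the naive state, was at 5.41, 4.22 and 5.49. Grhl2, an epithelial transcription factor, was at 4.73, 3.59 and 4.44, and the kinase gene Pim2 was at 8.11, 7.07 and 7.56. In each of the 6, formative CKO was the lowest of the 3 genotypes. The 6 were chosen by a low formative CKO value, which favours that order. Pou3f1, a hallmark of the formative state, was at 8.39, 8.01 and 8.86.

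The 3 formative genes higher in naive CKO were Etv4, Krt18 and Pou3f1. Etv4, an ETS factor induced by ERK signalling at chr11:101769742-101785371, was at 4.67 in naive WT, 6.28 in naive CKO and 3.42 in naive DKO. It was between 5.15 and 5.31 in formative cells. CKO and DKO thus lay on opposite sides of WT in the naive state, 2.86 apart. Krt18, a keratin of simple epithelia with 1 near-identical copy, was 1.11 above WT, and Pou3f1 was 1.00 above it.

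ERK response genes included several that were lower in naive DKO and within 2-fold of WT in naive CKO. Of 13 measured members of 16, 1, Etv4, was higher and 0 lower in naive CKO, with a median of 0.37, against 0 higher and 5 lower in naive DKO, with a median of -0.35. The shares over all genes were 3.85% higher and 4.8% lower in naive CKO, and 8.54% and 11.2% in naive DKO. Spry2, an inhibitor of the pathway that ERK induces, was at 6.25, 6.94 and 4.72 in naive WT, CKO and DKO. Spry4, a second such inhibitor, was at 0.99, 1.44 and -1.25. Dusp6, the phosphatase of ERK, was at 4.29, 4.26 and 2.89, so that CKO lay beside WT. In formative CKO 0 were higher and 1, Spry4, was lower, by 1.18. In formative DKO 2 were higher, Spry4 by 1.43 and Phlda1 by 2.10. Of all genes, 4.78% were lower in formative CKO and 5.87% higher in formative DKO.

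Several mesendoderm genes were far lower in formative CKO than in WT. Of 12 measured members of 21 primed and mesendoderm genes, 1 was higher and 5 were lower, where 4.78% of all genes were lower, with a median of -0.46, beside 1 higher and 7 lower in formative DKO, with a median of -1.44. In naive CKO 2 were higher, Mixl1 by 1.01 and Cdx1 by 1.03, and 1 was lower, Sp5. Among the genes with the lowest mean level, 12.9% were lower in formative CKO. The part of low level in the mesendoderm count was not tested. The 5 lower in formative CKO were Evx1, Wnt8a and Sp5, at -1.35, 0.34 and 0.59 there, and T and Wnt3. Proximal promoters of 4 of these and of Fgf5 are shown, as the sequences next to the starts of the genes that were low together. They are the 250 bases before the RefSeq start on GRCm38.p6, the assembly behind mm10, and Wnt8a is not shown.

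Evx1, chr6:52313248-52313497, plus strand: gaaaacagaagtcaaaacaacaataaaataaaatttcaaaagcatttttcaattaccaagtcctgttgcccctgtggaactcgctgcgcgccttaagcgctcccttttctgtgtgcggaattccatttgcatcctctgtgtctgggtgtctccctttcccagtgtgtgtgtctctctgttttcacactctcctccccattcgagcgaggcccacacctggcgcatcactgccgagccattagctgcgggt
T, chr17:8434173-8434422, plus strand: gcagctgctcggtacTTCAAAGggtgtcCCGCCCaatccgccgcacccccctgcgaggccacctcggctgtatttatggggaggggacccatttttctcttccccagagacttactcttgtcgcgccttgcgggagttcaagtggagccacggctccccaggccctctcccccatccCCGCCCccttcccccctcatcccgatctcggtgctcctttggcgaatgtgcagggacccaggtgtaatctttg
Wnt3, chr11:103773925-103774174, plus strand: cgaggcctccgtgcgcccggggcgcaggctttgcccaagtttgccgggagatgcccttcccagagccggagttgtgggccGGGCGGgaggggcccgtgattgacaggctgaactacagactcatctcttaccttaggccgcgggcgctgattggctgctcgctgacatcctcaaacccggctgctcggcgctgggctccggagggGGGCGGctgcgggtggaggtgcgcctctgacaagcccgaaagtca
Sp5, chr2:70474673-70474922, plus strand: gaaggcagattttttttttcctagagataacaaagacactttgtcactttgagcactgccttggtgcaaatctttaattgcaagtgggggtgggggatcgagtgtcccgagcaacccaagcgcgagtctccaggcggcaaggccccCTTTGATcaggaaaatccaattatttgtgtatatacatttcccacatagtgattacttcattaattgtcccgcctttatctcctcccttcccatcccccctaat
Fgf5, chr5:98253934-98254183, plus strand: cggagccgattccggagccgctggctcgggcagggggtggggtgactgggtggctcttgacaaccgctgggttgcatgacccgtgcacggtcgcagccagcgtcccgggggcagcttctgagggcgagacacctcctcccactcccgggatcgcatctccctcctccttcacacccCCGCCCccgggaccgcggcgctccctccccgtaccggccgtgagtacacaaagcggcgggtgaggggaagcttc

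Capitals mark GC boxes (GGGCGG or its reverse complement) and the letters CTTTGAA or CTTTGAT on either strand, to which TCF and LEF, the factors that act with beta-catenin, bind. No capitals overlap. CTTTGAA occurs in 4.47% and CTTTGAT in 3.21% of 32536 RefSeq promoters of the same length. The window of T held 1 CTTTGAA, that of Sp5 held 1 CTTTGAT, and those of Evx1, Wnt3 and Fgf5 held 0 of either. GC boxes, present in 33.0% of the promoters, numbered 2 at T, 2 at Wnt3, 1 at Fgf5 and 0 at Evx1 and Sp5. The TATA box letters TATAAA, present in 12.3%, were in none of the 5. Of the 5 windows, that of Wnt3 overlapped a region of the H3K27ac table, with values of 9.10 in formative WT and 7.72 in formative DKO on the authors' log2 scale. In naive cells the region was at 6.53 in WT and listed at 0 in DKO, while Wnt3 RNA was at 0.02 in WT and 4.12 in DKO. No H3K27ac value exists here for CKO.

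Evx1, a homeobox gene of the primitive streak at chr6:52313498-52318378, was at 2.85 in formative WT, -1.35 in formative CKO and 0.12 in formative DKO. Its naive levels were 0.82, 1.31 and 0.67, so that Evx1 was higher in formative than naive cells in WT and lower in CKO. Wnt8a, a Wnt ligand, was at 3.34, 0.34 and 1.36 in formative cells and between -1.97 and -1.83 in naive cells. For both genes formative CKO was the lowest genotype. T, which encodes the mesoderm factor brachyury, was at 2.92, 1.25 and -0.31 in formative WT, CKO and DKO, after -0.07, 0.71 and -0.30 in the naive state. Wnt3, the ligand that induces the streak, was at 4.96, 3.38 and 2.91 in formative cells, after 0.02, 0.49 and 4.12. For T and Wnt3 CKO lay between WT and DKO in the formative state. In the naive state Wnt3 was high in DKO alone. Sp5, a direct target of Wnt signalling, was at 3.86, 2.65 and 4.01 in naive cells and at 2.92, 0.59 and 2.12 in formative cells, and CKO was the lowest genotype in both states.

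Several genes of the Wnt pathway were lower in formative CKO. Of 15 measured members of 18, 0 were higher and 5 lower, where 4.78% of all genes were lower, with a median of -0.50, beside 1 higher and 4 lower in formative DKO. With the genes of lowest level left out, 4 of 7 members were lower in formative CKO. T, Wnt3 and Sp5 are on both the Wnt and the mesendoderm list, so the lists do not count as separate. Axin2, a feedback inhibitor and common readout of the pathway, was at 3.67 in formative WT, 2.07 in CKO and 2.14 in DKO, and between 3.18 and 3.36 in naive cells. Fzd10, a receptor, was at 4.74, 3.64 and 3.39 in formative cells. CKO and DKO lay together below WT at both genes. In naive CKO 1 member was higher, Cdx1, and 1 lower, Sp5, with a median of 0.19.

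Lefty1 was the mesendoderm gene higher in formative CKO, and there CKO and DKO lay on opposite sides of WT. Lefty1, an inhibitor of Nodal at chr1:180935022-180938400, was at 6.32 in formative WT, 7.88 in CKO and 4.80 in DKO. In naive cells it was at 3.73, 4.33 and 4.58. Formative CKO lay 3.09 above formative DKO. It has 1 near-identical copy, so its reads could be split. Nodal, the ligand, was at 7.02, 6.39 and 5.25 in formative cells, and CKO lay between WT and DKO.

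Of 13 measured members of 17 Nodal and BMP genes, 2 were higher and 1 lower in naive CKO, with a median of 0.22, and 2 were higher and 3 lower in formative CKO, with a median of -0.12. The shares over all genes were 3.85% higher and 4.8% lower in naive CKO, and 3.64% and 4.78% in formative CKO. Bmp4, a ligand, was at 2.89, 1.24 and 0.19 in naive WT, CKO and DKO, and at 1.91, 0.89 and 2.78 in formative cells. Id1, a target of BMP, was at 7.97, 6.72 and 7.82 in formative cells, and Id2 was at 5.05, 6.52 and 7.15 in naive cells. Inhba, which encodes an activin subunit, was between -1.72 and -1.24 in naive cells and at -1.58, 0.06 and 1.94 in formative WT, CKO and DKO.

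**Figure D4:**
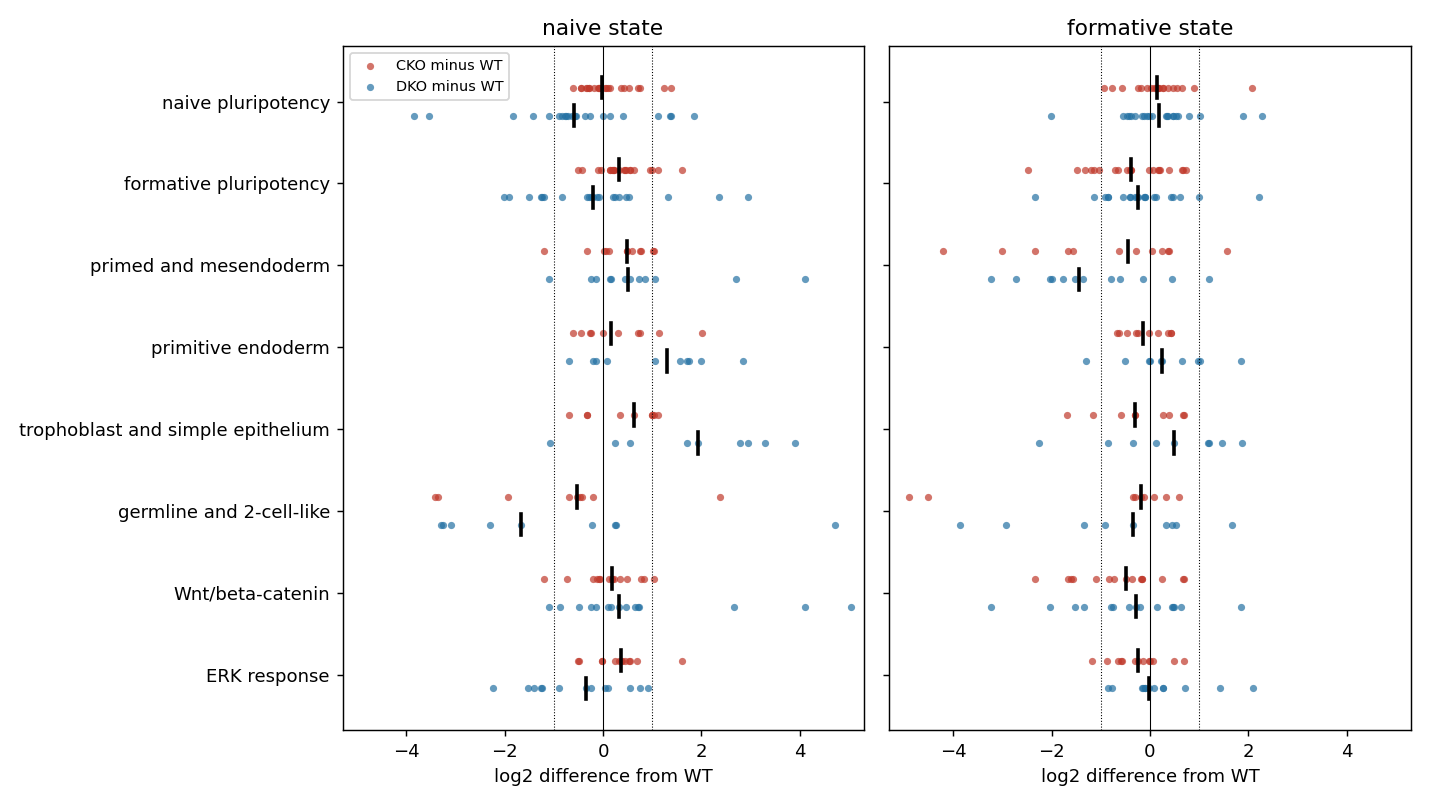
Log2 difference from WT of the measured genes of 8 lists in naive (left) and formative (right) cells, 1 point per gene, for CKO (red) and DKO (blue), with black bars at the list median and dotted lines at 2-fold. In naive cells the median bars of the trophoblast and primitive endoderm lists lie at 0.64 and 0.16 for CKO and at 1.94 and 1.31 for DKO, and in formative cells both genotypes have mesendoderm genes far to the left.

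Genes of lineages outside the epiblast were higher than WT at some members in naive CKO and at more members in naive DKO. Of 10 measured primitive endoderm genes of 16, 2 were higher and 0 lower in naive CKO, where 3.85% of all genes were higher, and 0 were counted in formative CKO, with medians of 0.16 and -0.13. In naive DKO 6 were higher and 0 lower, with a median of 1.31, where 8.54% of all genes were higher. Dab2, an endocytic adaptor of this lineage, was at 1.79, 1.34 and 4.64 in naive WT, CKO and DKO. Col4a2, a basement membrane collagen, was at 1.77, 1.17 and 3.76 in naive cells and 1.75, 2.17 and 3.60 in formative cells. The members higher in naive CKO were Amn, at -0.38, 1.63 and 1.19, and Gata6, at -1.59, -0.45 and -0.54 in WT, CKO and DKO. At both genes CKO was the highest genotype. Both lay low on the scale, which has a lowest value of -2.29. Among the genes with the lowest mean level, 9.89% were higher in naive CKO and 15.3% in naive DKO. The part of low level in the counts of this list was not tested.

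Of 9 measured genes of trophoblast and simple epithelium, of 16, 3 keratin genes were higher and 0 genes lower in naive CKO, where 3.85% of all genes were higher, with a median of 0.64, against 6 higher and 1 lower in naive DKO, with a median of 1.94. Krt18 was at 2.52, 3.64 and 5.48, Krt7 at -1.59, -0.55 and 1.69, and Krt19 at 0.25, 1.25 and 2.19 in naive WT, CKO and DKO. At each keratin CKO lay between WT and DKO. Krt7 and Krt19 lay low on the scale in naive WT and CKO. Among the genes with the lowest mean level, 9.89% were higher in naive CKO and 15.3% in naive DKO. The part of low level in the keratin differences was not tested. Over all genes 8.54% were higher and 11.2% lower in naive DKO. In formative CKO, where 4.78% of all genes were lower, 0 genes of this list were higher and 2 lower, with a median of -0.31. These were Ascl2, a trophoblast factor, at 3.48, 1.80 and 1.23, and Peg10, an imprinted gene of retrotransposon origin, at 4.81, 3.66 and 6.68. Peg10 in naive cells was at 3.81, 3.49 and 7.72, so that DKO alone was high in both states.

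The genes with the largest negative differences between naive CKO and naive DKO were high in DKO. Fabp5, a fatty acid carrier, was at 3.40, 2.40 and 6.64 in naive WT, CKO and DKO. Gsto1 was at 5.87, 6.93 and 9.78, with CKO 1.06 above WT, Perp at 3.68, 3.79 and 6.95, and Wls, which carries Wnt ligands to the surface, at 4.07, 4.09 and 6.92. In formative cells Tcf15 was at 5.36, 4.14 and 7.25, Tmsb4x at 7.95, 8.13 and 10.8, and Tex19.1, a germline gene of embryonic stem cells, at 6.89, 6.29 and 8.88. Phlda2, an imprinted gene, was at 6.98, 7.18 and 4.36 in formative cells, and Trh at 6.06, 6.77 and 4.33, so that there DKO alone was low.

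Zscan4c and Tcstv3, markers of the 2-cell-like cells that arise now and then in these cultures, were far lower in CKO and DKO than in WT. Zscan4c was at 2.69, -0.73 and -0.57 in naive WT, CKO and DKO and at 3.55, -1.35 and 0.63 in formative cells. Tcstv3 was at 1.39, -1.97 and -1.91 in naive cells and at 2.68, -1.84 and -1.19 in formative cells. They have 8 and 7 near-identical copies. In bulk RNA fewer cells of a kind and less RNA per cell cannot be told apart. Of 9 measured germline and 2-cell-like genes of 17, 1 was higher and 3 lower in naive CKO and 0 were higher and 2 lower in formative CKO, with medians of -0.54 and -0.18. Over all genes 4.8% were lower in naive and 4.78% in formative CKO. Among the genes with the lowest mean level, these shares were 12.3% and 12.9%. In CKO and DKO, Zscan4c and Tcstv3 lay low on the scale, which has a lowest value of -2.29. The part of low level in their differences was not tested. Piwil2, a germline gene, was at 1.23, 3.61 and 5.95 in naive WT, CKO and DKO, and Prdm1 was at 5.16, 3.23 and 3.48.

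Single markers of other cell types passed 2-fold in CKO, where 8.65% of all genes did so in the naive and 8.42% in the formative state. Of 5 measured neural and ectoderm genes of 12, 1 was higher in naive CKO, Sox1 by 1.03, and 0 were counted in formative CKO. Of 4 measured fibroblast feeder genes of 12, 1 was lower in naive CKO, Vim by 1.51, and 1 lower in formative CKO, Col1a2 by 1.04. Col1a2 was between -2.10 and -0.20 in naive cells. Vim was at 6.88, 5.37 and 6.46 in naive WT, CKO and DKO and at 5.48, 5.76 and 7.95 in formative cells.

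Few genes of the remaining lists passed 2-fold in CKO, as held for genes at large. Of all genes, 8.65% were counted in naive CKO and 8.42% in formative CKO. In lists this short, a count of 0 or 1 is not set apart from these shares. Of 16 measured housekeeping genes of 20, 0 were higher and 0 lower in naive or formative CKO, with medians of 0.19 and 0.05. Of 12 Polycomb genes measured of 17, and of 15 glycolysis genes of 21, 0 were counted in either state. Of 14 cell cycle genes of 19, 0 were counted in naive CKO and 1, Mycn, was lower in formative CKO. Of 15 LIF/STAT3 genes of 17, 1, Klf4, was higher in naive CKO and 0 were counted in formative CKO. Of 5 DNA methylation genes of 13, 0 were counted in CKO, where Dnmt3l was lower in naive and formative DKO. Of 13 imprinted genes of 25, 1 was higher in naive CKO, Phlda2 by 1.57, and 2 were lower in formative CKO, Ascl2 and Peg10. Of 17 adhesion and matrix genes of 22, 1 was higher and 1 lower in naive CKO, Cldn7 by 1.72 and Cldn3 by 1.11. In formative CKO 1 was lower, Cdh1, which encodes E-cadherin, at 10.6, 9.54 and 8.76 in WT, CKO and DKO.

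The transition from the naive to the formative state was compared within each genotype. In CKO 1630 genes were higher (16.7%) and 851 lower (8.7%) in the formative state. In WT 1674 were higher (17.1%) and 944 lower (9.65%), and in DKO 1760 were higher (18%) and 504 lower (5.15%). The share of counted genes that were higher was 65.7% in CKO, 63.9% in WT and 77.7% in DKO as deposited. It was 50.1%, 48.7% and 52.5% after quantile normalization, so the excess of higher genes depends on the scaling. The medians over all genes were 0.10, 0.13 and 0.18.

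In CKO, as in WT, most naive genes had a lower level in the formative state. Of the 22 measured, 18 were lower in formative than naive CKO, 16 in WT and 14 in DKO, with medians of -2.07, -2.32 and -1.52. Over all genes 8.7% were lower in CKO, 9.65% in WT and 5.15% in DKO. Esrrb differed by -3.18 in CKO, -3.98 in WT and -2.07 in DKO. Dnmt3l differed by -2.04 in CKO, -0.54 in WT and 0.98 in DKO. Formative genes were higher in 15 of 21 cases in CKO, 15 in WT and 17 in DKO, with medians of 1.93, 2.64 and 2.51. Over all genes 16.7% were higher in CKO, 17.1% in WT and 18% in DKO. Fgf5 differed by 4.41 in CKO, 6.09 in WT and 5.75 in DKO, Fgf15 by 2.16, 5.27 and 2.80, and Pou3f1 by 3.86, 5.24 and 5.19. Each of these 3 genes was higher in formative cells of every genotype, by the least in CKO. All 3 had been counted in CKO, Fgf5 and Fgf15 as lower in formative and Pou3f1 as higher in naive cells. Either count favours a smaller CKO difference. Other members were not ordered so: Car4 differed by 6.14 in CKO, 5.54 in WT and 6.26 in DKO, and Sox4 by 3.05, 3.08 and 1.71.

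Among these 3 lists the medians of the genotypes lay farthest apart for mesendoderm genes. Of the 12 measured, 4 were higher and 3 lower in formative than naive CKO, with a median of -0.20. In WT 7 were higher and 1 lower, with a median of 1.08, and in DKO 2 were higher and 7 lower, with a median of -1.15. The shares over all genes were 16.7% higher and 8.7% lower in CKO, 17.1% and 9.65% in WT, and 18% and 5.15% in DKO. Evx1 differed by -2.66 in CKO, 2.03 in WT and -0.55 in DKO, and T by 0.54, 2.99 and -0.01. Wnt8a was higher in formative cells of every genotype, by 2.18, 5.32 and 3.19 in CKO, WT and DKO. Wnt3 differed by 2.89 in CKO, 4.94 in WT and -1.21 in DKO, and Lefty1 by 3.55, 2.58 and 0.21. These differences between genotypes have no replicate check.

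**Figure D5:**
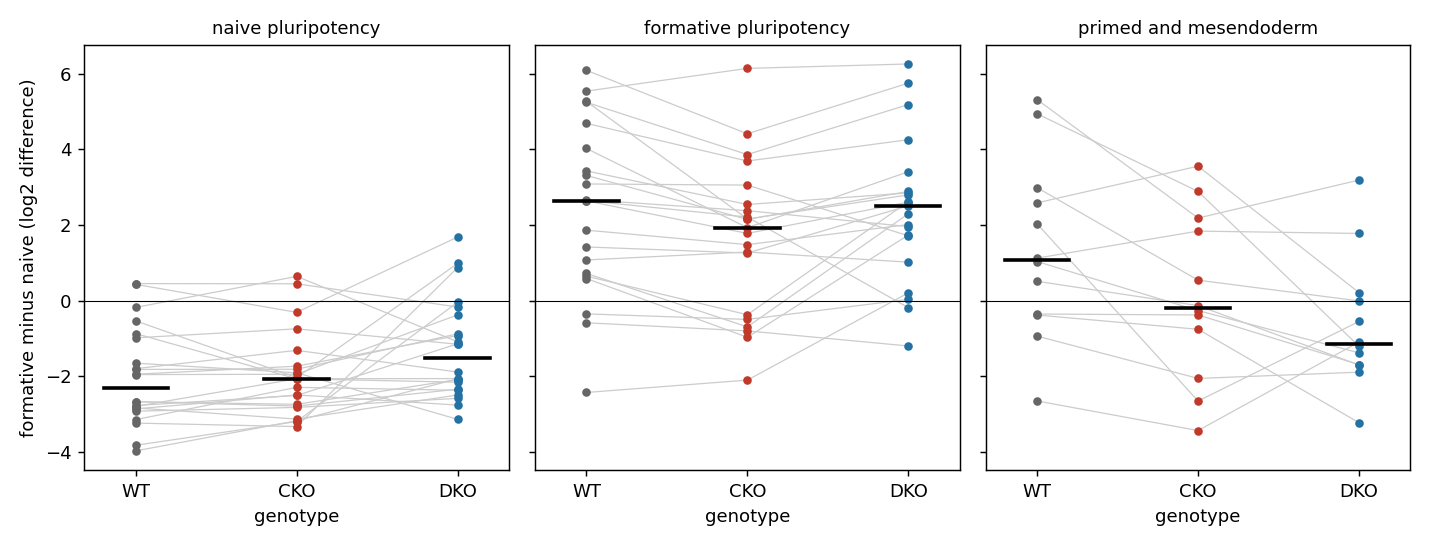
Log2 difference between formative and naive cells for the measured naive, formative and mesendoderm genes, 1 point per gene in WT (grey), CKO (red) and DKO (blue), with thin lines joining a gene and black bars at the medians. The mesendoderm medians run from 1.08 in WT through -0.20 in CKO to -1.15 in DKO, while the naive list is low in every genotype.

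The chromatin columns, which hold DKO and WT only, were summarised for genes counted in CKO RNA. A gene's value was the median of the DKO minus WT difference over its regions. For both marks only regions with H3K27ac above 0 in both groups were used. For naive H3K27ac the median over genes was 0.20 for 373 genes higher in CKO RNA, -0.67 for 463 genes lower in CKO RNA, and 0.05 for 9701 genes. For formative H3K27ac it was -0.55 for 356 higher genes, -1.18 for 461 lower genes and -0.48 for 9753 genes. For H3K4me1, from libraries outside this series, the naive medians were 0.00, -0.35 and -0.16 and the formative medians 0.02, -0.20 and 0.13 in the same order. Regions near genes lower in CKO RNA thus had lower DKO H3K27ac and H3K4me1 medians than regions of all genes in both states. The sets were not matched on RNA level, low-level genes are frequent among the counted genes, and the part of that in the medians was not tested.

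At single genes the DKO H3K27ac went with CKO RNA in some cases and not in others. Over the 8 regions of Car2, low in CKO RNA, the median DKO minus WT H3K27ac was -1.14 in naive and -1.45 in formative cells. Over the regions of Klhl13 it was -0.61 and -1.88, although Klhl13 RNA was 1.20 and 0.71 above WT in DKO. Over the 9 regions of Etv4 it was -2.39 and -0.36, and over the 3 regions of Lefty1 -0.999 and -2.17, where RNA was below WT in formative DKO and above it in formative CKO.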

How the data were processed

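Per the submitters' processing notes, the tools named are deepTools, DiffBind, SEACR, Bowtie2 and Trim Galore and the build is mm10, with no version or role given. Of the 112137 regions in the single table that the authors deposited, 54067 carry RNA values of the nearest gene. These RNA levels, of 1 value per genotype and state, are treated as a deposited score with no stated unit, because no label names the RNA libraries, their counting or their normalization. Their differences equal the log2 folds the authors deposited to within 9.8e-06, so they are read as log2. The levels run from -2.29, a floor shared by groups, to 13.2, are not known to be per length, and are not compared between genes. The 4 H3K27ac columns are pooled log2 values of the authors, and H3K4me1 is used as their log2 folds. The 4 H3K4me1 level columns were used in no comparison. RNA levels of a further genotype were compared with nothing, but each gene had to have them and the quantile normalization included them.

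Per gene, 1 value was taken, its regions agreeing to within 4.96e-06, and 9 comparisons were made by subtraction in Python 3.11.15 with pandas 2.3.3, which was tested on simulated data. No count of replicates exists, so no test was run. The members and the 22 gene lists were chosen with earlier results of these data known. Named genes are all machinery genes, the 8 largest positive and negative CKO differences per state and over both states, the 6 per direction against DKO (all above the median level), and up to 4 per list. A result that the rule selected but that is withheld is not reported here. Single other members of lists were named after their values were seen. Near-identical copies of 138 named genes were sought with BLAST 2.17.0 among GENCODE transcripts. Gene positions are from GENCODE and promoters from RefSeq, GRCm38.p6, in which 91 of these 138 genes were found. Alternatives were another threshold, a filter on level, 3 scalings, the deposited folds and genes with a promoter region.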

Additional observations from a re-analysis of the deposited data

Results flagged for a closer look

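Fst, which encodes the activin-binding protein follistatin, stood on opposite sides of WT in the states of CKO. It was 1.07 above WT in naive CKO (2.20 in WT, 3.27 in CKO) and differed by -1.65 in formative CKO (3.95 in WT, 2.30 in CKO). In DKO the differences were 0.78 and 0.02. With 1 value per group the difference between the states was not tested. The naive value was 1.00 after quantile normalization and 0.99 after a running median by level was removed, both just under the 2-fold threshold.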

How the results depend on the processing

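Values near 0 changed sign. Among list medians, 3 did so under a scaling: adhesion and matrix genes in formative CKO (-0.04, 0.02 after quantile normalization), glycolysis genes in naive CKO (0.02, -0.01 when centred) and naive genes in naive CKO (-0.01, 0.01 after quantile normalization). The H3K4me1 median of genes higher in CKO was -0.06 in the naive and -0.04 in the formative state without promoter regions, and just under 0 in both with no filter on H3K27ac. The medians over all genes of formative against naive were -0.02 in CKO, -0.01 in WT and -0.04 in DKO after quantile normalization. The formative DKO counts were 521 higher and 528 lower with a running median removed. The excess of lower genes in CKO against WT was absent in formative cells above the lowest 25% of levels (156 higher, 152 lower) and in naive cells among genes with a promoter region (97 higher, 92 lower). Centring, quantile normalization, removal of a running median and the deposited folds left every total within 1.5 times, the last run for 7 of the 9 comparisons. Totals are given in the order naive and formative CKO against WT, naive and formative DKO against WT, naive and formative CKO against DKO, then formative against naive in CKO, WT and DKO, and last the genes higher and lower in CKO in both states. At 4-fold they were 115, 111, 518, 179, 357, 144, 842, 947, 678, 15 and 20. Above the lowest 25% of levels they were 303, 308, 1007, 457, 750, 382, 1342, 1418, 1197, 34 and 27. Among genes with a promoter region they were 189, 198, 520, 251, 418, 234, 720, 738, 644, 24 and 27. Fewer genes enter the last 2 by construction. The share of formative against naive genes that were higher was 59.7% in CKO, 56.7% in WT and 67.5% in DKO when centred. Without promoter regions, formative H3K27ac was -0.66 for genes higher and -1.29 for genes lower in CKO, and -0.61 for all genes. Of 276 values of named genes, 3 crossed the 2-fold threshold when centred, 10 after quantile normalization and 5 with a running median removed, each from close to it: under quantile normalization Sox1 and Chac1 in naive CKO were at 0.97 and 0.93, and Cdh1 in formative CKO at -0.96. Over the 7 Wnt genes above the lowest 25% of levels the formative median was -1.10, and over the 3 mesendoderm genes with a promoter region it was -1.58. No paired analysis was possible because the RNA columns hold 1 value per genotype and state, and leaving out replicates was not run for the same reason. Depth is unknown.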

Other observations

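A stretch of chromosome 13, chosen after its values were seen, held neighbouring zinc finger genes with large differences in CKO. Between 66 and 68 Mb of mm10, 25 genes were measured, of which 19 were zinc finger genes. Of these 19, 8 were higher and 2 lower in naive CKO, 6 were higher and 2 lower in formative CKO, 7 were higher and 2 lower in naive DKO, and 3 were higher and 1 lower in formative DKO. In naive DKO 8.54% of all genes were higher and 11.2% lower, and in formative DKO 5.87% and 5.05%. Over all genes 3.85% were higher and 4.8% lower in naive CKO, and 3.64% and 4.78% in formative CKO. Zfp429 was at -1.91, 3.45 and 3.27 in naive WT, CKO and DKO and at 0.00, 3.40 and 2.39 in formative cells, so that WT alone was low in both states. Zfp712 was at -1.21, 0.63 and 0.53 in naive cells and at -1.86, 0.60 and 0.18 in formative cells. Zfp759, Zfp85 and Zfp273 were also low in naive WT, at -1.02, -0.69 and -0.35, while Rsl1 and Zfp729a were at 2.53 and 2.40. Of the 25% of genes with the lowest mean level, 9.89% were higher and 12.3% lower in naive CKO. The part of low level in these counts was not tested. Within the stretch Zfp457 went the other way, 1.15 and 1.94 below WT in CKO. KRAB zinc finger genes form clusters of related sequence, so that reads can be split between them, and the part of this or of the strain behind each line was not tested.

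By chromosome, the median difference of CKO from WT lay between -0.09 on chromosome 8 and 0.12 on chromosome 3 over both states, leaving out the Y chromosome with 3 genes. Naive DKO was at -0.22 on chromosome 14 and -0.26 on chromosome 17, where naive CKO was at 0.07 and 0.03. On chromosome 17, 16.6% of 476 genes were lower in naive DKO and 3.15% in naive CKO. Over all genes these shares were 11.2% and 4.8%. Chromosome 7 had a similar share in naive DKO, with 16.1% of 750 genes lower, and 5.07% lower in naive CKO.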
